A study of Capra hircus with 9 samples.

Results

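The SLC25 family holds the carriers of the inner mitochondrial membrane. Its members here are the genes that the deposited tables name SLC25A plus a number and list in every library, which gave 39 of the 18383 genes named. Each carrier passes a defined set of nucleotides, acids, amino acids, cofactors or metal ions between the cytosol and the mitochondrial matrix, and a few family members sit in peroxisomes or in the outer mitochondrial membrane. The rumen epithelium takes up short-chain fatty acids from microbial fermentation and oxidises part of them in its mitochondria, so these carriers link the fuel supply of the tissue with its ATP supply.

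RNA was sequenced from rumen epithelium, the inner lining of the main fermentation chamber, of goats (Capra hircus) aged 4 months. The HC, MC and LC groups hold 3 libraries each, numbered as in their titles (HC1 to LC3), and the labels give only the names HC diet, MC diet and LC diet for 3 types of concentrate diet. The labels state no genotype and do not say whether each library is a different animal, so p-values measure the spread between these samples, which may be technical. Values are FPKM, fragments scaled to transcript length and to the size of the library, so levels can be set side by side between genes, and the depth of each library is unknown because the tables hold no read counts.

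The libraries listed 15125 to 16698 genes with an FPKM total of 755624 for LC1 and totals between 903006 and 1051180 for the rest. Markers of stratified epithelium such as the basal keratins KRT5 and KRT14 summed to 5647 to 7734 FPKM in HC, 6203 to 7303 FPKM in MC and 5132 to 7772 FPKM in LC. Of the same list, KRT10 (0.647 to 2.78 FPKM) and DSG1 (0.0156 to 0.205 FPKM) were low, while KRTDAP stood at 405 to 722 FPKM. SBSN read 0.868 to 1.225 FPKM in LC, at most 0.255 FPKM in MC, and 0.0487 FPKM in HC1, the only HC library that listed it. Within the same list the desmosomal cadherin DSG3 was lower in HC (180.0 ± 24.7 FPKM) than in MC (339 ± 65.6 FPKM, adjusted p = 0.00794) and in LC (368 ± 84.6 FPKM, adjusted p = 0.00388), and the basal cell factor TP63 was higher in HC than in MC (log2 change 0.43 ± 0.13, adjusted p = 0.0327). The part of these differences in the results on the carriers was not tested. The 10 smooth muscle markers summed to 115 to 149.8 FPKM in HC and to 1185 to 3666 FPKM in MC. Within LC they stood at 2423 FPKM in LC1 and 1300 FPKM in LC2 but at 60.5 FPKM in LC3. The 9 immune cell markers summed to 9.85 to 12.4 FPKM in HC, 13.3 to 14.3 FPKM in MC and 35.3 to 38.2 FPKM in LC. In such bulk samples fewer cells of a type and less RNA per cell cannot be told apart.

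Single values of the family ran from 0.0695 to 7236 FPKM, as the plot of levels shows. SLC25A6, an ADP/ATP carrier, had 4257, 7236 and 6032 FPKM in HC1 to HC3, 2722, 2918 and 3528 FPKM in MC1 to MC3, and 3576, 5652 and 5436 FPKM in LC1 to LC3. It ranked between place 23 and place 70 of all genes in a library, and it made up 75.0% to 80.8% of the family's summed FPKM in HC, 65.2% to 70.1% in MC and 74.7% to 79.5% in LC. The phosphate carrier SLC25A3, the citrate carrier SLC25A1, the ADP/ATP carrier SLC25A5 and the dicarboxylate carrier SLC25A10 followed, and these 5 were the members with a mean of at least 100 FPKM. Another 12 members averaged 10 to 100 FPKM, 16 averaged 1 to 10 FPKM and 6 stayed under 1 FPKM. Without SLC25A6 the family took 0.157% ± 0.00841 of the summed FPKM in HC, 0.160% ± 0.00522 in MC and 0.148% ± 0.0110 in LC (SD, n = 3 each), and the libraries of all 3 diets overlapped.

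**Figure D1:**
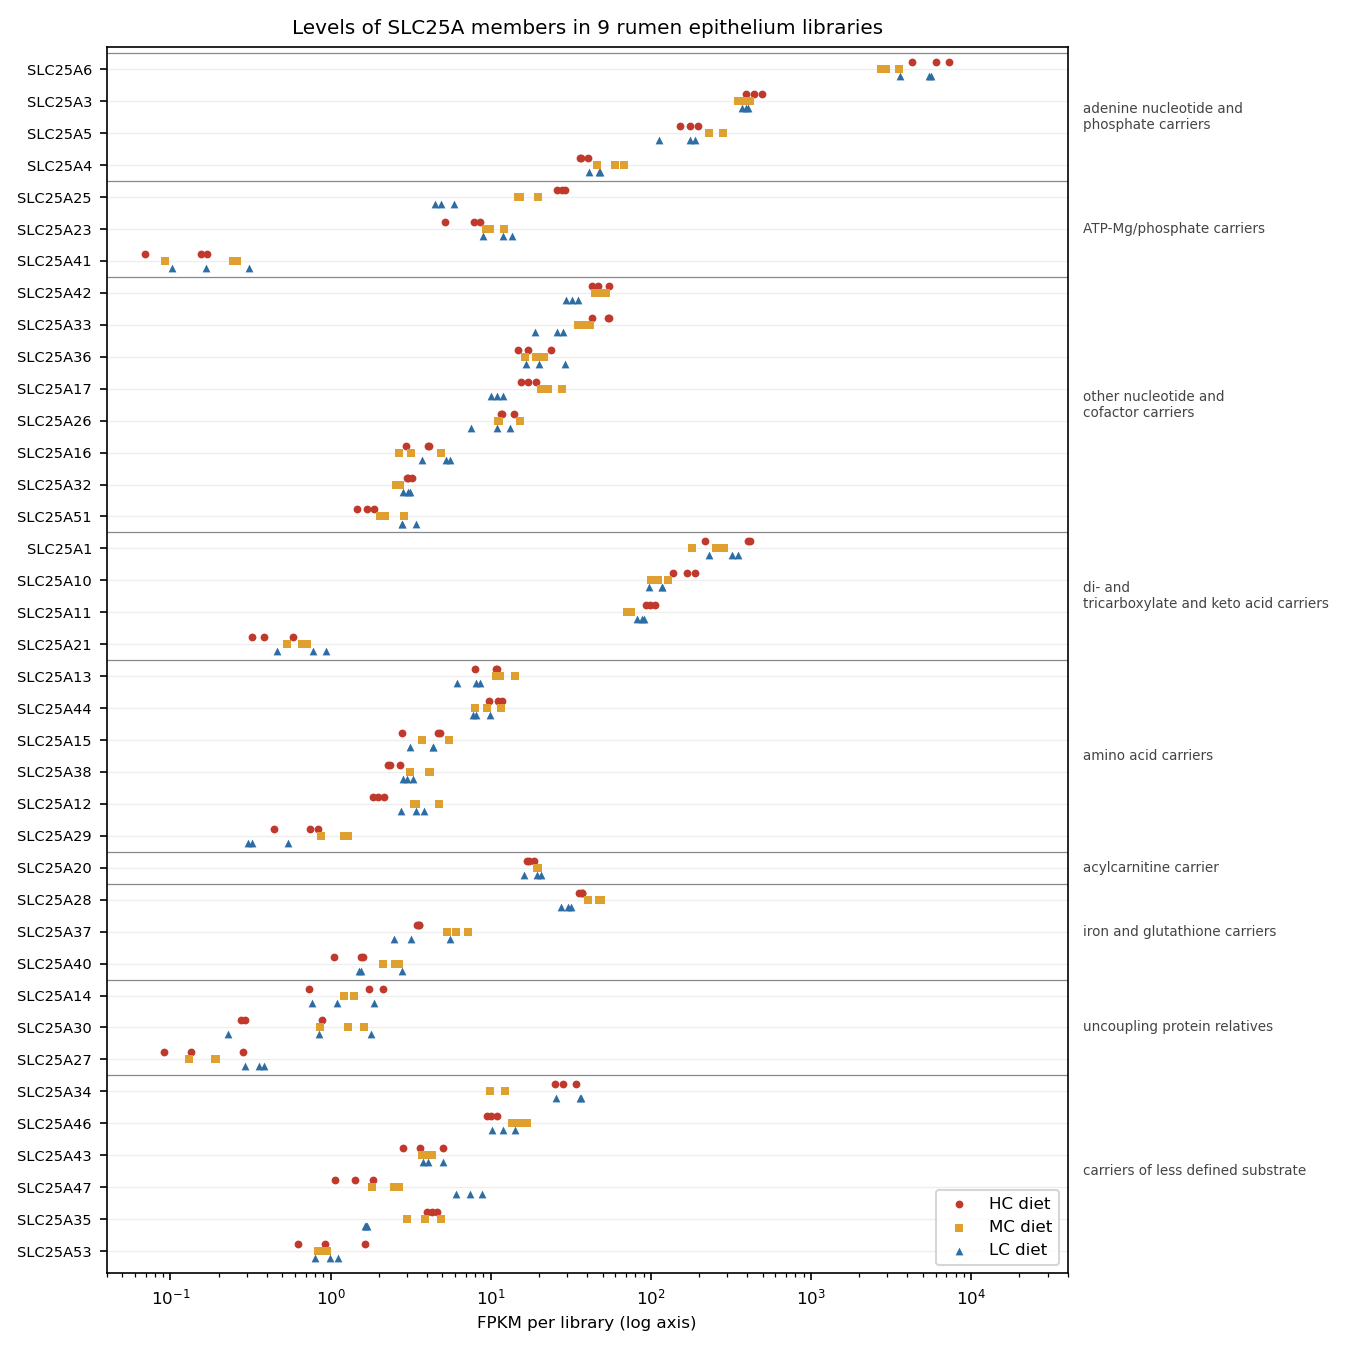
FPKM of the SLC25A members reported here in every library (log axis), grouped by substrate, with HC libraries as circles, MC libraries as squares and LC libraries as triangles. SLC25A6 lies at 2722 to 7236 FPKM, and the SLC25A25 points form 3 separate clusters, HC above MC above LC.

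Inside the mitochondrion ADP and phosphate enter and ATP leaves through the ADP/ATP carriers and the phosphate carrier. SLC25A6 was higher in HC (5842 ± 1499 FPKM) than in MC (3056 ± 420.1 FPKM), with no overlap of libraries and a log2 change of 0.91 ± 0.25 (SE; adjusted p = 0.0203), and stood at 4888 ± 1141 FPKM in LC. This call was lost without HC2 (adjusted p = 0.0892), HC3 (0.0728), MC1 (0.0825) or MC2 (0.0716). Its paralogue SLC25A5 was highest where SLC25A6 was lowest, in MC. SLC25A5 stood at 198, 152 and 175 FPKM in HC1 to HC3, 281, 232 and 232 FPKM in MC1 to MC3, and 113, 175 and 189 FPKM in LC1 to LC3. Every MC library lay above every HC and LC library, and only MC against LC passed the test (log2 change 0.67 ± 0.20, adjusted p = 0.0235), which it did not without MC1 (0.0951) or MC2 (0.0502). The ratio of SLC25A6 to SLC25A5 was 21.5 to 47.7 in HC, 9.67 to 15.2 in MC and 28.7 to 32.3 in LC.

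SLC25A4, the ADP/ATP carrier typical of muscle, read 36.3, 40.5 and 36.8 FPKM in HC1 to HC3, 59.5, 68.0 and 46.0 FPKM in MC1 to MC3, and 47.5, 48.3 and 41.3 FPKM in LC1 to LC3. Its HC libraries lay below all others, and it was lower in HC than in MC by the test (log2 change -0.58 ± 0.15, adjusted p = 0.0174). Without HC3 (0.0648), MC1 (0.0638) or MC2 (0.0797) it did not pass. SLC25A4, SLC25A5 and SLC25A6 are close copies of each other, and how the authors' counting split reads between them is not stated, so their values are uncertain. SLC25A3 read 395, 496 and 443 FPKM in HC1 to HC3, 414, 351 and 390.3 FPKM in MC1 to MC3, and 373, 404 and 395 FPKM in LC1 to LC3, and its diets overlapped in every comparison (adjusted p = 0.393 for HC against LC, 0.924 for MC against LC and 0.329 for HC against MC).

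SLC25A25 belongs to the ATP-Mg/phosphate carriers, which have calcium-binding domains and adjust the adenine nucleotide pool of the matrix. It lies on chromosome 11, 97182176 to 97215618 in the coordinates of the files, whose genome build is not given in the sources used here. It reached 25.9, 28.1 and 29.0 FPKM in HC1 to HC3, 15.3, 14.8 and 19.8 FPKM in MC1 to MC3, and 4.90, 5.90 and 4.50 FPKM in LC1 to LC3. The 3 diets did not overlap anywhere, with HC highest and LC lowest. The mean in HC was 5.42 times that in LC (log2 change 2.24 ± 0.14, adjusted p = 1.66e-06), that in MC 3.26 times that in LC (1.53 ± 0.14, adjusted p = 1.52e-05), and that in HC 1.66 times that in MC (0.71 ± 0.14, adjusted p = 0.00401). All 3 calls held in each of the 22 alternatives. SLC25A25 was singled out beforehand as one of the largest rises against LC in these same libraries. Its p-values against LC and the refits of these libraries are therefore a description and not independent support.

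Its relative SLC25A23 did not follow. SLC25A23 read 5.15, 8.55 and 7.91 FPKM in HC1 to HC3, 9.30, 12.0 and 9.88 FPKM in MC1 to MC3, and 13.6, 12.0 and 9.02 FPKM in LC1 to LC3. It was lower in HC than in LC (log2 change -0.62 ± 0.19, adjusted p = 0.0316), a call lost without HC1 (0.0979), HC3 (0.0529), LC1 (0.0965) or LC2 (0.0836), and after median-of-ratios scaling (0.0720). This call was also lost after quantile normalization (0.102) and with only the 6 libraries compared (0.0559). With the mean of the smooth muscle markers as a covariate it was lost as well (0.174). The ratio of SLC25A25 to SLC25A23 was 3.28 to 5.03 in HC, 1.23 to 2.01 in MC and 0.360 to 0.499 in LC, so SLC25A25 was the more abundant of the pair in every HC and MC library and the less abundant in every LC library. The third listed relative, SLC25A41, read 0.0695 to 0.170 FPKM in HC, 0.0925 to 0.259 FPKM in MC and 0.102 to 0.308 FPKM in LC and was too low to test.

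Among the other nucleotide and cofactor carriers, SLC25A33, SLC25A17 and SLC25A42 were higher than LC in both other diets. SLC25A33, which carries pyrimidine nucleotides, had 53.9, 43.2 and 54.5 FPKM in HC1 to HC3, 41.7, 35.3 and 38.8 FPKM in MC1 to MC3, and 18.9, 25.8 and 28.2 FPKM in LC1 to LC3. The diets did not overlap and stood in the same order as for SLC25A25, with log2 changes of 1.04 ± 0.16 for HC against LC (adjusted p = 0.000907) and 0.66 ± 0.16 for MC against LC (adjusted p = 0.00815), while HC against MC did not pass (0.38 ± 0.16, adjusted p = 0.106). SLC25A17, a carrier of coenzyme A and related nucleotides in peroxisomes, had 19.3, 17.2 and 15.5 FPKM in HC1 to HC3, 23.0, 20.6 and 27.7 FPKM in MC1 to MC3, and 11.0, 10.1 and 11.9 FPKM in LC1 to LC3.

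Here MC stood highest and LC lowest, again without overlap. SLC25A17 changed by 0.61 ± 0.14 for HC against LC (adjusted p = 0.00732), 1.04 ± 0.14 for MC against LC (adjusted p = 0.000186) and -0.43 ± 0.14 for HC against MC (adjusted p = 0.0381), and this last call was lost without HC2 (0.0920), HC3 (0.149), MC1 (0.0868) or MC3 (0.123). SLC25A42, which carries coenzyme A into the mitochondrion, averaged 48.0 ± 6.09 FPKM in HC, 47.9 ± 3.92 FPKM in MC and 32.3 ± 2.87 FPKM in LC. It was higher than LC in HC (log2 change 0.55 ± 0.13, adjusted p = 0.0114) and in MC (0.56 ± 0.13, adjusted p = 0.00777). The call in HC was lost with the smooth muscle covariate (0.0675).

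SLC25A51, the mitochondrial carrier of NAD, went the other way. It read 1.68, 1.46 and 1.88 FPKM in HC1 to HC3, 2.88, 2.2 and 2.04 FPKM in MC1 to MC3, and 3.42, 2.79 and 2.79 FPKM in LC1 to LC3. HC lay below both other diets without overlap, and HC against LC passed the test (log2 change -0.58 ± 0.14, adjusted p = 0.0119). That call was lost after quantile normalization (log2 change -0.32, adjusted p = 0.0948) and with the smooth muscle covariate (0.0588). The S-adenosylmethionine carrier SLC25A26, the folate carrier SLC25A32, the pyrimidine nucleotide carrier SLC25A36 and SLC25A16, linked to coenzyme A transport, passed the test in no comparison. SLC25A26 overlaps the gene LRIG1 in the files.

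The carriers of di- and tricarboxylates move citrate, malate, succinate and oxoglutarate and so connect the tricarboxylic acid cycle with the cytosol. SLC25A10, the dicarboxylate carrier, had 138, 187 and 168 FPKM in HC1 to HC3, 110.2, 100.1 and 127 FPKM in MC1 to MC3, and 97.8, 118 and 117 FPKM in LC1 to LC3. HC lay above both other diets without overlap, by 0.56 ± 0.16 on the log2 scale against LC (adjusted p = 0.0257) and 0.54 ± 0.16 against MC (adjusted p = 0.0301). The call against LC was lost without HC2 (0.0973) or HC3 (0.0886), and that against MC without HC2 (0.116), HC3 (0.0971), MC1 (0.0926) or MC2 (0.120). The call against LC was also lost with the smooth muscle covariate (0.112) and with only the 6 libraries compared (0.0563). SLC25A11, the oxoglutarate/malate carrier, averaged 99.0 ± 6.54 FPKM in HC, 74.0 ± 2.29 FPKM in MC and 86.6 ± 4.61 FPKM in LC.

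The 3 diets of SLC25A11 did not overlap, and HC against MC passed the test (log2 change 0.41 ± 0.12, adjusted p = 0.0296), but not without HC2 (0.104), HC3 (0.0924), MC1 (0.0835), MC2 (0.102) or MC3 (0.0628). SLC25A1, the citrate carrier, read 218, 402 and 418 FPKM in HC1 to HC3, 181, 256 and 287 FPKM in MC1 to MC3, and 232, 349 and 320.4 FPKM in LC1 to LC3. Its diets overlapped in every comparison and it passed in none. SLC25A21, the oxodicarboxylate carrier, was too low to test at 0.323 to 0.587 FPKM in HC, 0.532 to 0.714 FPKM in MC and 0.461 to 0.932 FPKM in LC.

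The aspartate/glutamate carriers SLC25A12 and SLC25A13, which serve the malate-aspartate shuttle and, in liver, urea synthesis, differed in pattern. SLC25A12 read 1.83, 1.97 and 2.15 FPKM in HC1 to HC3, 4.73, 3.40 and 3.33 FPKM in MC1 to MC3, and 3.85, 3.41 and 2.77 FPKM in LC1 to LC3. Its HC libraries lay below all others, and it was lower in HC than in MC (log2 change -0.68 ± 0.15, adjusted p = 0.00718) and than in LC (-0.54 ± 0.15, adjusted p = 0.0214). The call against LC was lost without HC1 (0.0569), HC2 (0.0534), LC1 (0.0575) or LC2 (0.0578). It was also lost after median-of-ratios scaling (0.0502) or quantile normalization (0.168), and with the smooth muscle covariate (0.124).

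SLC25A13 averaged 9.87 ± 1.63 FPKM in HC, 12.2 ± 1.82 FPKM in MC and 7.62 ± 1.26 FPKM in LC and was higher in MC than in LC (log2 change 0.61 ± 0.16, adjusted p = 0.0115). SLC25A38, which carries glycine for haem synthesis, was lower in HC (2.45 ± 0.227 FPKM) than in MC (3.82 ± 0.581 FPKM), a log2 change of -0.48 ± 0.13 (adjusted p = 0.0213), and stood at 3.04 ± 0.227 FPKM in LC. That call was lost without HC1 (0.0508), HC2 (0.0648), MC1 (0.0837) or MC3 (0.0666). The ornithine carrier SLC25A15, the branched-chain amino acid carrier SLC25A44 and the carnitine/acylcarnitine carrier SLC25A20, which brings fatty acids in for oxidation, passed in no comparison. SLC25A20 stood at 17.0 to 18.7 FPKM in HC, 19.5 to 19.9 FPKM in MC and 16.1 to 20.6 FPKM in LC.

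The mitoferrins SLC25A28 and SLC25A37 import iron for haem and iron-sulphur clusters. SLC25A28 averaged 36.8 ± 0.975 FPKM in HC, 45.6 ± 4.36 FPKM in MC and 29.9 ± 2.26 FPKM in LC, with no overlap between any diets, and was higher in MC than in LC (log2 change 0.59 ± 0.12, adjusted p = 0.00300). SLC25A37 read 3.46, 3.57 and 3.57 FPKM in HC1 to HC3, 7.18, 6.06 and 5.33 FPKM in MC1 to MC3, and 5.54, 3.16 and 2.48 FPKM in LC1 to LC3.

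SLC25A37 was lower in HC than in MC (log2 change -0.66 ± 0.20, adjusted p = 0.0322) and higher in MC than in LC (0.65 ± 0.20, adjusted p = 0.0257), although LC1 overlapped MC. Leaving out any HC library, MC1 or MC2 ended the first call (adjusted p = 0.0693 to 0.117), and leaving out MC1 (0.0971), MC2 (0.0651), LC2 (0.0831) or LC3 (0.0939) ended the second. The second call was also lost after common-sum scaling (0.0836), with the smooth muscle covariate (0.0781) and with only the 6 libraries compared (0.0578). SLC25A40, a carrier of glutathione, was lower in HC (1.40 ± 0.303 FPKM) than in MC (2.44 ± 0.271 FPKM), with 1.94 ± 0.721 FPKM in LC, at an adjusted p of 0.0496 that was lost without any one HC or MC library or LC2 (0.0540 to 0.167).

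SLC25A47 and SLC25A34, whose substrates are less well defined, had the largest falls of the family. SLC25A47, known in human and mouse as a liver carrier, read 1.07, 1.42 and 1.84 FPKM in HC1 to HC3, 1.81, 2.49 and 2.67 FPKM in MC1 to MC3, and 7.48, 6.06 and 8.82 FPKM in LC1 to LC3. All HC and MC libraries lay far below LC, with log2 changes of -1.79 ± 0.17 for HC against LC (adjusted p = 3.22e-05) and -1.34 ± 0.17 for MC against LC (adjusted p = 0.000144). SLC25A34 read 25.2, 34.1 and 28.3 FPKM in HC1 to HC3, 9.96, 9.86 and 12.3 FPKM in MC1 to MC3, and 25.7, 36.1 and 36.8 FPKM in LC1 to LC3.

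SLC25A34 was thus low in MC only: it was lower in MC than in LC (log2 change -1.52 ± 0.16, adjusted p = 5.24e-05) and higher in HC than in MC (1.36 ± 0.16, adjusted p = 0.000299), while HC and LC overlapped (adjusted p = 0.513). SLC25A35, a relative of SLC25A34, read 4.00, 4.33 and 4.61 FPKM in HC1 to HC3, 3.02, 3.91 and 4.92 FPKM in MC1 to MC3, and 1.69, 1.66 and 1.65 FPKM in LC1 to LC3. It was higher than LC in HC (log2 change 0.996 ± 0.15, adjusted p = 0.000633) and in MC (0.88 ± 0.15, adjusted p = 0.000876). SLC25A35 overlaps RANGRF in the files, so reads of the 2 genes may be mixed. RANGRF itself averaged 17.8 ± 3.84 FPKM in HC, 13.6 ± 2.58 FPKM in MC and 14.3 ± 4.98 FPKM in LC and passed in neither comparison with LC (adjusted p = 0.334 and 0.930).

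SLC25A46, an outer membrane protein needed for normal mitochondrial shape, read 11.0, 9.45 and 9.98 FPKM in HC1 to HC3, 16.8, 13.7 and 15.1 FPKM in MC1 to MC3, and 14.2, 10.3 and 11.9 FPKM in LC1 to LC3. HC and MC did not overlap, and it was lower in HC than in MC (log2 change -0.54 ± 0.13, adjusted p = 0.0142). It did not pass without HC2 (0.0514), HC3 (0.0525) or MC1 (0.0635). SLC25A43 and the uncoupling protein relatives SLC25A14 and SLC25A30 passed in no comparison. SLC25A53, SLC25A29 and SLC25A27 were too low to test. SLC25A29, a carrier of basic amino acids, read 0.442 to 0.834 FPKM in HC, 0.869 to 1.29 FPKM in MC and 0.305 to 0.544 FPKM in LC, so MC stood above the other diets. SLC25A27 read 0.0919 to 0.286 FPKM in HC, 0.131 to 0.193 FPKM in MC and 0.291 to 0.387 FPKM in LC, where every LC library was above every other library.

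**Figure D2:**
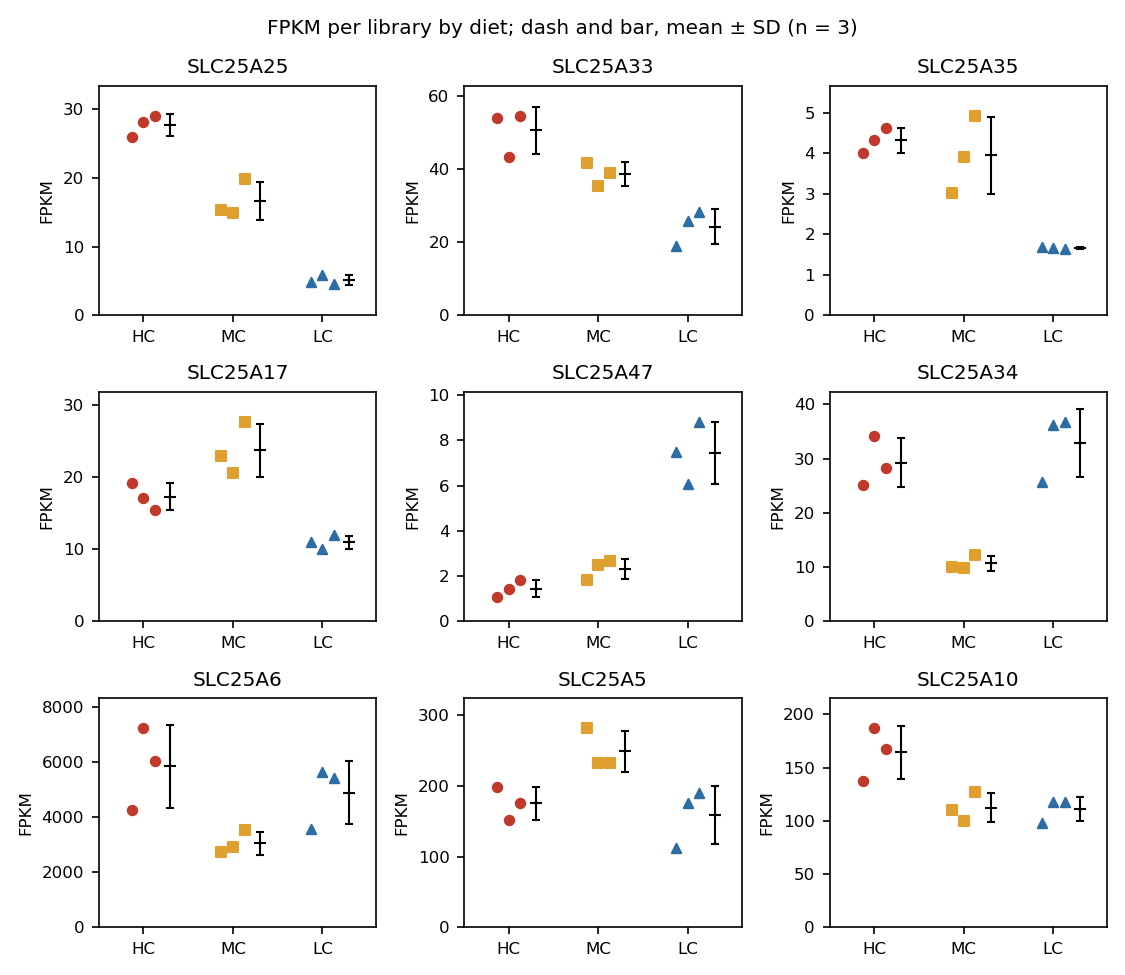
FPKM of 9 members in each library, by diet, with the mean ± SD (n = 3) beside the points and axes that start at 0. SLC25A25 and SLC25A33 step down from HC through MC to LC, SLC25A47 stands out in LC with 6.06 to 8.82 FPKM, and SLC25A34 drops in MC alone to 9.86 to 12.3 FPKM.

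SLC25A25, SLC25A33, SLC25A35, SLC25A17, SLC25A10 and SLC25A42 were higher in HC, and SLC25A47, SLC25A23, SLC25A51 and SLC25A12 were lower. Of the 34 members tested, 6 were higher and 4 lower, 29.4% in all, against 25.2% of all 11668 genes tested (7.79% higher and 17.4% lower). The libraries did not overlap for 8 members higher and 6 lower, while 40.6% of all genes did not overlap (13.3% higher and 27.4% lower). The family's median log2 change was 0.084 beside -0.10 for all genes, but it was 0.0048 without LC1, 0.022 without HC3, 0.027 without HC2 and 0.040 without HC1. It was 0.18 after median-of-ratios scaling, 0.060 after quantile normalization and -0.029 after scaling to a common sum. The median of all genes moved as well, to -0.0023, 0.017 and -0.22 in the same order. By role, 3 of 9 other nucleotide and cofactor carriers were higher and 1 lower, 1 of 3 acid carriers was higher, 1 of 5 amino acid carriers was lower, and 0 of 4 adenine nucleotide and phosphate carriers passed in limma (0 at an unadjusted p below 0.05). After median-of-ratios scaling 9 members were higher and 2 lower (1475 and 1372 of all genes, against 909 and 2030 without it), and after quantile normalization 8 and 1 (1484 and 1157 of all genes). SLC25A25, SLC25A33, SLC25A35 and SLC25A47 kept their calls in each of the 22 alternatives. With LC3, the LC library poor in muscle markers, alone for LC, the other 6 kept their direction. Their log2 changes were then 0.50 for SLC25A17, 0.47 for SLC25A10, 0.43 for SLC25A42, -0.31 for SLC25A23, -0.34 for SLC25A12 and -0.50 for SLC25A51. Calls lost in that fit cannot be told apart from the effect of having 1 LC library.

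MC against LC set the second diet against the same LC libraries, which both comparisons share. SLC25A25, SLC25A17, SLC25A35, SLC25A5, SLC25A33, SLC25A37, SLC25A13, SLC25A28 and SLC25A42 were higher in MC, and SLC25A34 and SLC25A47 were lower. Of the 34 tested, 9 were higher and 2 lower, 32.4% against 33.4% of all genes tested (16.2% higher and 17.1% lower), with a median log2 change of 0.15 (0.074 without LC1) beside -0.0067 for all genes. The libraries did not overlap for 8 members higher and 5 lower, while 47.1% of all genes did not overlap (23.8% higher and 23.4% lower). Of the 9 other nucleotide and cofactor carriers 3 were higher, of the 3 iron and glutathione carriers 2 were higher, and of the 3 acid carriers 0 passed in limma (0 at an unadjusted p below 0.05). After quantile normalization 9 members were higher and 4 lower (2176 and 2100 of all genes). SLC25A25, SLC25A17, SLC25A35, SLC25A34 and SLC25A47 kept their calls in each of the 22 alternatives. SLC25A6 did not pass (log2 change -0.66 ± 0.25, adjusted p = 0.0584) but was lower in MC than in LC in 8 of the 22 alternatives, among them the 3 other scalings (0.0420 median-of-ratios, 0.00391 quantile and 0.00928 common-sum), the fit without LC1 (0.00768) and that without HC1 (0.0432). Its adjusted p over the alternatives ran from 0.000316 to 0.179.

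In HC against MC, SLC25A34, SLC25A6, SLC25A25, SLC25A10 and SLC25A11 were higher in HC, and SLC25A12, SLC25A37, SLC25A4, SLC25A46, SLC25A40, SLC25A38 and SLC25A17 were lower. Of the 34 tested, 5 were higher and 7 lower, 35.3% against 25% of all genes tested (8.0% higher and 17.0% lower). The median log2 change was -0.058 beside -0.10 for all genes. It was -0.10 without HC1, -0.13 without HC2, -0.024 without HC3 and -0.088 without MC3. It was 0.043 after median-of-ratios scaling, 0.062 after quantile normalization, -0.20 after scaling to a common sum and -0.16 with the smooth muscle covariate. The median of all genes was -0.0077, 0.0059, -0.25 and -0.13 in these settings, in the same order. The libraries did not overlap for 7 members higher and 12 lower, while 46.4% of all genes did not overlap (14.7% higher and 31.6% lower). The split was 6 higher and 4 lower after median-of-ratios scaling, 7 and 3 after quantile normalization, and 4 and 9 after scaling to a common sum. Over all genes the same 3 scalings gave 1502 higher and 1345 lower, 1553 and 1296, and 538 and 2768, against 933 and 1984 without them. The count of 12 was 4 without HC2, 4 without HC3, 3 without MC1 and 6 without MC2. Calls over all genes were not counted for these fits, so a loss particular to the family cannot be told from a general one. Only SLC25A25 and SLC25A34 kept their calls in each of the 22 alternatives.

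**Figure D3:**
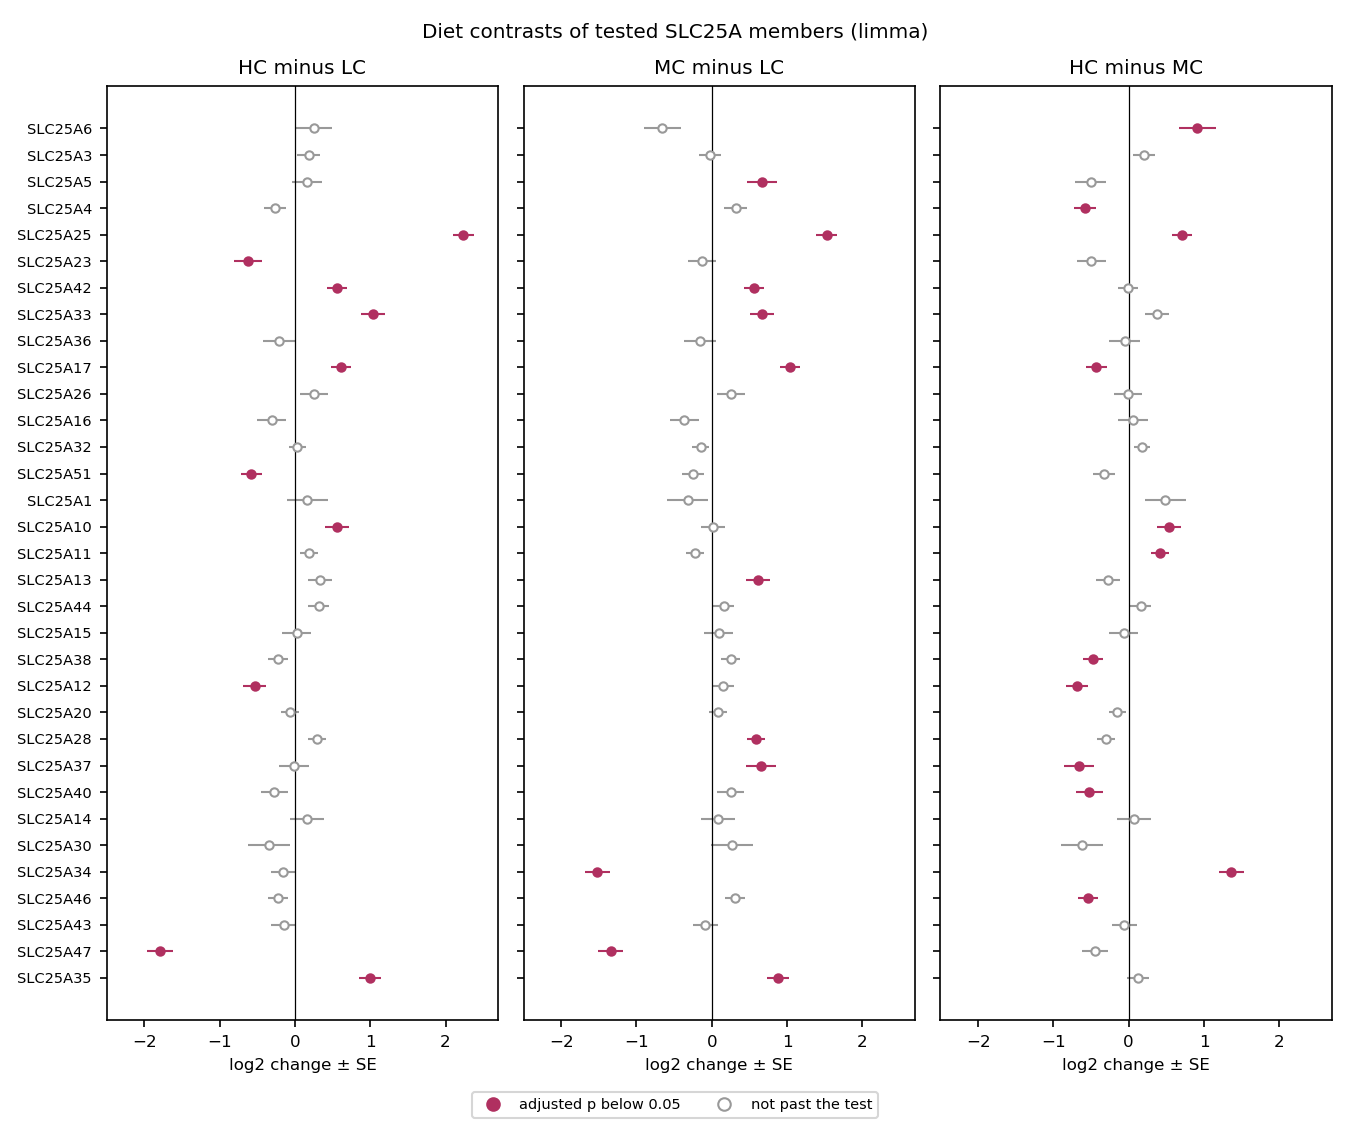
Log2 change ± SE of the tested members reported here in HC minus LC, MC minus LC and HC minus MC, in the order of the plot of levels. Filled points have an adjusted p below 0.05, and SLC25A25 lies at 2.24, 1.53 and 0.71.

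Smooth muscle markers moved with HC against MC. For 9 of the 10 markers every HC library lay below every MC library, the exception being ACTA2, and the median log2 change of the list was -3.39. Of the 7 members lower in HC than in MC, 4 were also lower in LC3 than in both other LC libraries, as the muscle markers were: SLC25A4, SLC25A12, SLC25A37 and SLC25A38. For SLC25A40 and SLC25A46 LC3 lay between LC1 and LC2, and for SLC25A17 above both. LC3 was also below both for SLC25A23, SLC25A25, SLC25A30, SLC25A32 and SLC25A35, none of which was called lower in HC than in MC. The same share over all genes was not worked out. With the smooth muscle mean as a covariate 2 members were called in HC against MC, SLC25A25 and SLC25A34, and 5 in HC against LC. Over all genes the covariate left 315 higher and 761 lower in HC against MC, from 933 and 1984 without it. In HC against LC it left 585 and 1533, from 909 and 2030. Standard errors of the members lost in HC against MC grew as well, for SLC25A17 from 0.14 to 0.20. Lost power and muscle RNA cannot be told apart in this fit. Beyond that fit, the part of muscle RNA in the calls was not tested. Immune cell markers moved with LC, with 6 of 7 tested markers lower in HC and 6 of 7 lower in MC than in LC. Of those 6, PTPRC, CD3E and CD3D reached 1 FPKM in the LC libraries alone and so entered the test through the diet where they were high, while CSF1R, CD14 and JCHAIN are the others. The part of immune cell RNA in the changes of SLC25A25, SLC25A33, SLC25A35 and SLC25A47 was not tested.

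**Figure D4:**
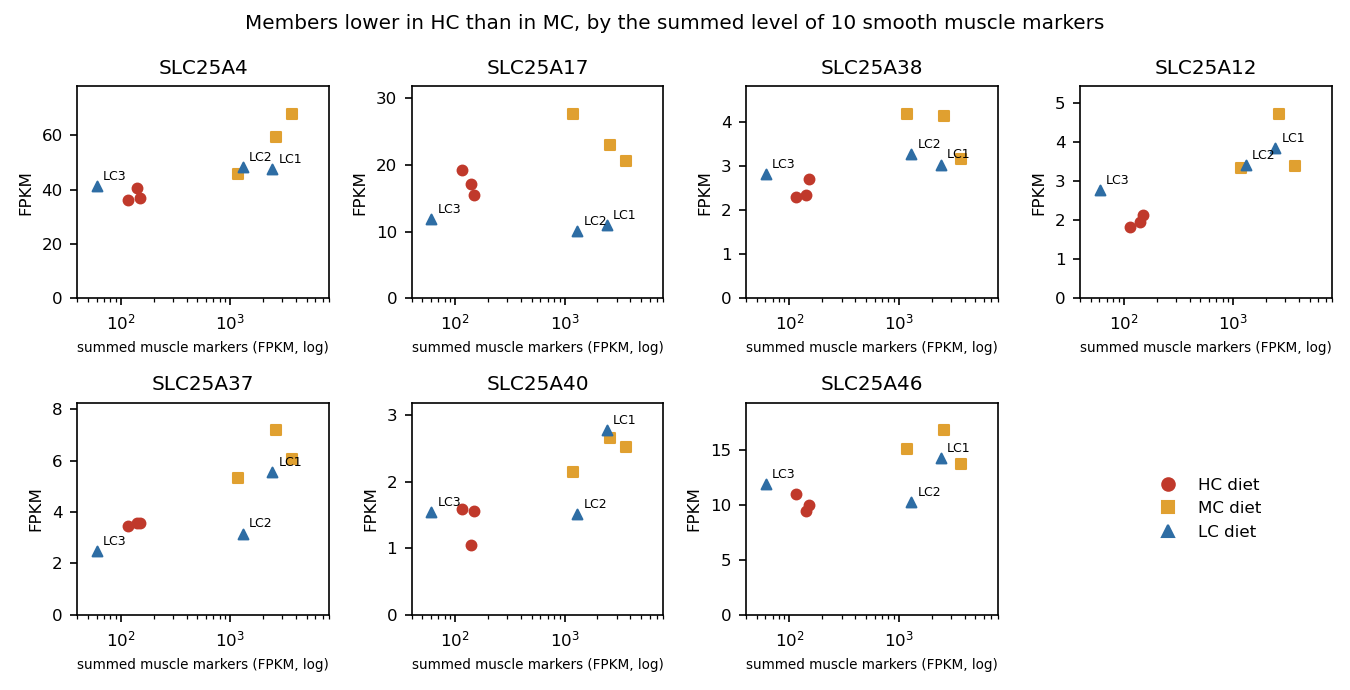
FPKM of the 7 members lower in HC than in MC (axes from 0) against the summed FPKM of 10 smooth muscle markers (log axis) in each library, with LC libraries named. HC libraries and LC3 lie at the left, at 60.5 to 149.8 FPKM of markers, and the other LC and all MC libraries lie at 1185 to 3666 FPKM.

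Across all 3 diets together, 20 of the 34 tested members (58.8%) passed the F test, against 45.2% of all genes. The mean was highest in HC for 7 of them, in MC for 9 and in LC for 4. Over all genes the split differed, with 839 highest in HC, 2143 in MC and 2292 in LC. The count for the family was 13 without HC2, 13 without HC3 and 13 without MC1, and that over all genes was not worked out for these fits. In the pairwise comparisons 13 tested members passed in none.

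Other mitochondrial genes give the setting of these values. Of 23 nuclear respiratory chain subunits tested, 0 passed in HC against LC, and 1, the complex IV subunit NDUFA4, was higher in MC than in LC and lower in HC than in MC. Of 21 tricarboxylic acid cycle enzymes, which share the 4 SDH genes with that list, 0 passed in HC against LC and 1, IDH3A, changed likewise, at 16.7 ± 0.537 FPKM in HC, 33.3 ± 2.80 FPKM in MC and 13.4 ± 0.245 FPKM in LC. Their median log2 changes in HC against LC were 0.11 and 0.093, beside 0.084 for the carriers. At an unadjusted p below 0.05 the 2 lists had 2 and 3 genes in that comparison.

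The machinery that brings carriers to the inner membrane moved in part. Of its 12 tested genes, TIMM22, TIMM9, TIMM8A, TIMM10B and TOMM22 were higher in MC than in LC and 0 were lower, beside 16.2% higher and 17.1% lower of all genes. The first 4 of these were also lower in HC than in MC, and 0 of the 12 were higher, beside 17.0% lower and 8.0% higher of all genes. The other 7 did not pass in MC against LC. TIMM22, the channel of the insertion complex, averaged 8.71 ± 0.486 FPKM in HC, 13.7 ± 1.03 FPKM in MC and 9.74 ± 1.04 FPKM in LC. It was higher in MC than in LC (log2 change 0.46 ± 0.12, adjusted p = 0.0106) and lower in HC than in MC (-0.598 ± 0.12, adjusted p = 0.00420). The small chaperones TIMM9 and TIMM8A, which guide carriers across the space between the membranes, were likewise highest in MC, with adjusted p = 0.00619 and 0.000962 for MC against LC. In HC against LC the import pore TOMM40 alone passed (log2 change 0.58 ± 0.19, adjusted p = 0.0423). In LC1 to LC3 TOMM40 read 35.9, 61.4 and 56.8 FPKM and TOMM22 read 68.1, 106 and 109 FPKM, so LC1 was lowest for both. The 22 alternatives were examined for the SLC25A members only.

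Of family members under other names, MTCH2, an outer membrane insertase, was higher than LC in HC (log2 change 0.69 ± 0.16, adjusted p = 0.00817) and in MC (0.45 ± 0.16, adjusted p = 0.0430). MTCH1 and the uncoupling protein UCP2 passed in no comparison. Among 16 other mitochondrial membrane transport genes, 3 were higher in HC than in LC and 0 lower, led by the pyruvate carrier subunit MPC1 (log2 change 0.80 ± 0.19, adjusted p = 0.00998). Of all genes tested 7.79% were higher and 17.4% lower in that comparison, and 16.2% and 17.1% in MC against LC. In MC against LC 4 were higher and 3 lower, with the serine carrier SFXN1 the furthest down (-0.96 ± 0.14, adjusted p = 0.000381).

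**Figure D5:**
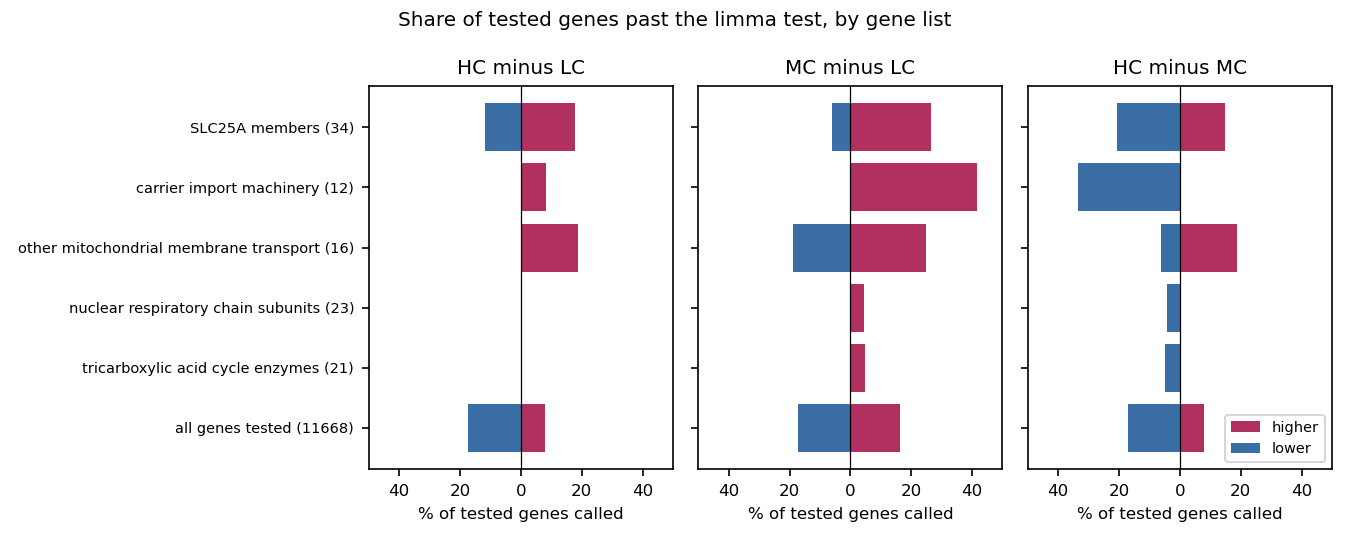
Percentage of tested genes past the test in each list, higher to the right of 0 and lower to the left, with the number tested in brackets. The carriers have calls in both directions in all 3 contrasts. In HC minus LC 0 of the 23 respiratory chain subunits and 0 of the 21 cycle enzymes passed, beside 25.2% of all genes.

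The members lie on 20 chromosomes, apart from SLC25A6 on an unplaced sequence, and 3 pairs are close neighbours. In the coordinates of the files SLC25A33 lies at 41537582 to 41553633 and SLC25A34 at 49374159 to 49378682 on chromosome 16. SLC25A35 lies at 27131682 to 27137157 on chromosome 19, SLC25A17 at 103191021 to 103237425 on chromosome 5 and SLC25A47 at 62138215 to 62141416 on chromosome 21. SLC25A23 and SLC25A41 on chromosome 7 are 2632 bases apart, SLC25A43 and SLC25A5 on the X chromosome 10969 bases, and SLC25A29 and SLC25A47 on chromosome 21 24441 bases. In each pair 1 gene was called in at least 1 comparison and the other was either not called or too low to test. SLC25A47 was highest in LC, while its neighbour SLC25A29 averaged 0.672 ± 0.204 FPKM in HC, 1.12 ± 0.222 FPKM in MC and 0.392 ± 0.133 FPKM in LC, its lowest mean.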

How the data were processed

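The authors deposited 1 FPKM value per gene and library. The submitters' processing notes name Bowtie 1.2.0 and Cufflinks 2.2.1, from which, with the values, the unit was taken. Genome build, strand and counting settings are not stated there. Chromosome names are those of a RefSeq gene table (assembly ARS1.2), where 37 of the 39 members were found. Lines whose names had become dates (0 to 21 per file) were left out, and repeated names were summed.

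Genes present in all 9 files and reaching 1 FPKM in 3 or more libraries (11668 genes, 34 members) were fitted on log2(FPKM + 1), a scale that understates changes of low genes, with limma 3.58.1 in R 4.3.3. One fit held a mean per diet (6 residual degrees of freedom, trend and robust moderation), two-sided, with Benjamini-Hochberg adjustment over all genes and a threshold of 0.05. On simulated data for HC minus LC (11668 genes) it recovered 0%, 77% and 96.5% of 200 genes changed by 0.5, 1 and 2 log2 units, with 0, 5 and 10 other genes called. In the data 25.2% of genes passed in this comparison, and the adjusted cut-off loosens as more genes change. The recovered shares therefore do not carry over to the data. A low member can pass this filter through 1 high diet alone. The members, lists and tests were chosen with earlier results of these data known. Per-library values are given for up to 4 rises and 4 falls per contrast without overlap, the 5 highest members and SLC25A25; other members are given by means, range or call, and lists by counts and up to 3 genes by adjusted p. RANGRF, KRT5, KRT14, KRT10, DSG1, KRTDAP, SBSN, PTPRC, CD3E, CD3D, JCHAIN, TIMM10B, TOMM22, ACTA2, TNNT3 and AHSP were named after their values were seen. Markers of skeletal muscle, fibroblasts, endothelium and red cells were also summed. Python 3.11.15, pandas 2.3.3 and matplotlib 3.10.9 made tables and figures. Of the members counted, 1 is not reported here by name. No protein or promoter sequences were used here.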

Additional observations from a re-analysis of the deposited data

How the results depend on the processing

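The 22 alternatives changed the pseudocount, low-value filter, scaling, moderation, library weights, libraries fitted and covariates, and no called member changed direction in any of them. The members called numbered 10 in HC against LC, 11 in MC against LC, 12 in HC against MC and 20 in the F test. With array quality weights 21 were called in HC against MC. With the smooth muscle covariate 5 were called in HC against LC, 2 in HC against MC and 11 in the F test, and calls over all genes fell in both these comparisons as well. With LC3 alone for LC, where that library is assumed to vary like the others, 4 were called in HC against LC and 6 in MC against LC. Leaving out 1 library gave 8 to 10 calls in HC against LC, 9 to 14 in MC against LC, 3 to 16 in HC against MC and 13 to 19 in the F test. The cause was not tested, and calls over all genes were not counted for these fits. Calls lost in at least 1 alternative numbered 6 of 10, 6 of 11 and 10 of 12, and 6, 6 and 12 members outside the calls passed in at least 1. The all-gene median log2 change of HC against LC, -0.10, was -0.0023, 0.017 and -0.22 after median-of-ratios, quantile and common-sum scaling. The replicate block on the title numbers gave 10, 14, 16 and 22 calls, with SLC25A6 lower in MC than in LC (adjusted p = 0.0133). The main fit did not take the numbers as pairs. Correlations of same-numbered libraries' deviations ran from -0.0759 to 0.504, with only HC2 and MC2 below 0. Those of differently numbered libraries ran from -0.494 to 0.31, the highest being HC2 with MC3. Same-numbered correlations above 0 thus ran from weak, 0.0674 for HC3 with LC3, to 0.504 for MC3 with LC3. Deviations are taken from each diet's mean, so values above 0 for some pairs go with values below 0 for others. MC3 and LC3 were also the libraries of their diets lowest in smooth muscle markers. Whether same-numbered libraries share an animal or a batch was not tested. Without read counts no counting error can be given for members under 1 FPKM.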

Other observations

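SLC25A31, the ADP/ATP carrier of testis, was listed in 3 of 9 libraries, at 0.0858 FPKM in HC1, 0.1 FPKM in LC2 and 0.0775 FPKM in LC3, and SLC25A45 in LC1 alone, at 0.0483 FPKM. Neither entered the family as counted here. Summed markers of other tissues were, for fibroblasts, 122 to 268 FPKM in HC, 120 to 274 FPKM in MC and 205 to 508 FPKM in LC, and for endothelium 7.46 to 16.7 FPKM in HC, 10.9 to 26.1 FPKM in MC and 15.9 to 43.8 FPKM in LC. Skeletal muscle markers, nearly all TNNT3, summed to 110.2 to 219.8 FPKM in HC, 77.8 to 124 FPKM in MC and 117 to 237 FPKM in LC. Of the 5 red cell markers AHSP alone was listed, at 0.930 to 1.62 FPKM in HC, 0.131 to 0.557 FPKM in MC and 0.125 to 0.970 FPKM in LC.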
